A study of Mus musculus with 20 samples.

Results

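Genes of the B cell lineage, which develops in the marrow, were followed in mouse tibiae, as 31 genes of the 54446 in the deposited table. The rule named the genes by symbol, from precursor genes to genes of mature B cells and plasma cells, and Fam129c, also called Niban3, was listed in the annotation under the older name. The genes were chosen by their known place in the B lineage and with the fold changes of DEX against vehicle in these libraries already seen, so their counts and changes below describe them and support nothing beyond that. All 31 had counts in every library and passed the filter on low counts in the comparisons below.

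The study asked how a glucocorticoid alters the response of bone to mechanical loading. The mice were 3-month-old male C57BL/6J animals given either DEX (dexamethasone, a synthetic glucocorticoid) at 1 mg/kg subcutaneously or water as vehicle for 5 days. The left tibia was loaded along its axis with -13 N in 40 cycles per session, and the right tibia of the same mouse was not loaded. This gave 4 groups of 5 libraries each, namely Vehicle_Ctrl (vehicle, unloaded), Vehicle_Load (vehicle, loaded), DEX_Ctrl (DEX, unloaded) and DEX_Load (DEX, loaded). Per the paper, tibiae were frozen 4 hours after the last loading session. The paper describes the mouse samples as cortical bone with the periosteum. The frozen bone tissue was pulverized before RNA extraction, and the sources used here do not say whether marrow was removed from it. Markers of osteoblasts, neutrophils, erythroid cells and skeletal muscle were all detected, with levels given below. Because the samples were bulk tissue, fewer B lineage cells and less of their RNA per cell cannot be told apart.

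B cells are made in the marrow. Progenitors commit to the lineage through transcription factors such as Ebf1 and Pax5, cut and join immunoglobulin gene segments with the Rag1 and Rag2 recombinase, and test the first heavy chain in a pre-B receptor that contains the surrogate light chain. Cells that pass this test carry IgM, then IgD, and leave for the periphery as mature B cells, while some return as antibody-secreting plasma cells. Glucocorticoids are known to deplete immature lymphocytes in marrow and thymus.

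Library totals ran from 4641425 to 13031968 expected counts, and DEX_Load replicate 4 had the lowest total. DEX_Ctrl replicate 4 is shown but was left out of the means and fits, because the study removed a DEX-4 dataset, and its text as read here does not name the tibia. Reads over olfactory and vomeronasal receptor genes, which bone should not use, served as a measure of background. They took 237 to 1254 CPM (counts scaled to the library size) in the vehicle libraries and 727 to 5949 CPM in the DEX libraries, with the highest value in DEX_Load replicate 4. In the loaded tibiae the vehicle and DEX groups did not overlap in this background, so DEX and background cannot be told apart there by a covariate. Within the vehicle groups, Vehicle_Load replicate 1 was the lowest of its group for 27 of the 31 genes. Osteoblast markers were present in every library, at a summed level of at least 4537 CPM over 7 genes. Of 5 genes that glucocorticoids induce in many tissues, none rose in unloaded tibiae and Fkbp5 and Zbtb16 rose in loaded tibiae, with a log2 fold change (log2FC) of 0.87 ± 0.17 SE and 1.01 ± 0.21 SE. Fkbp5 was at 0.81 ± 0.24 SE in unloaded tibiae (adjusted p = 0.060), where Sgk1 fell, at -0.63 ± 0.15 SE. Per1 was the lowest of the 5 in loaded tibiae, at -0.56 ± 0.24 SE, and was not called (adjusted p = 0.11).

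The stretches before the start sites of Cd79a, Vpreb3 and Igll1 are shown as examples of genes lower in both DEX comparisons with a motif match of a B lineage factor before the start site. Other genes that were lower in both also held matches in their windows (Blnk, Cd72, Fam129c, Fcrla, Pou2af1, Rag1 and Spib), and the 3 were picked as parts of the receptor and pre-B receptor and a related protein. They are RefSeq sequences on GRCm38.p6, printed 5′ to 3′ on the strand of the gene, from 250 bases before the start site to the last base before any annotated exon of the gene. They lie at chr7:24897247-24897380 (+), chr10:75948050-75948299 (+) and chr16:16863986-16864235 (-). Capitals mark matches on either strand to CCCNNGGG (the core bound by Ebf1), CAGCTG (an E-box), GAGGAA (an ETS core, read by factors such as Spib) and ATGCAAAT (the octamer of Oct factors, which Pou2af1 binds as coactivator).
Cd79a: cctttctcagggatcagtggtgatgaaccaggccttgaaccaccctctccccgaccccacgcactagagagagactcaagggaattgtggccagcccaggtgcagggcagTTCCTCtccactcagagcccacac
Vpreb3: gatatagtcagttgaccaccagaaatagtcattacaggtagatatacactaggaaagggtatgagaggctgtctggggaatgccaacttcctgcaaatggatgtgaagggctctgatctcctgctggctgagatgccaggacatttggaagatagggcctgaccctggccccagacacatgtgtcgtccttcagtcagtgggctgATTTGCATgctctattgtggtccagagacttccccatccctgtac
Igll1: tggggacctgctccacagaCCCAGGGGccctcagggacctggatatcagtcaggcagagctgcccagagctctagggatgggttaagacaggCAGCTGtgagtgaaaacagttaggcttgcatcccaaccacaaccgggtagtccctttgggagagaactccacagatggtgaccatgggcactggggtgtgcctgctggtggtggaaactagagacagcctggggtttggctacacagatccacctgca

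In these stretches the Ebf1 core lay at position -231 of Igll1 and the E-box at -158, the octamer at -45 of Vpreb3 and the ETS core at -140 of Cd79a, counted from the start site. RefSeq promoter windows of 300 bases were found for 25 of the 31 genes. These genes had 28 windows, since some have more than 1 start site. The Ebf1 core was present in 21.4% of the 28 windows against 13.7% of all 32851 windows, and the E-box in 14.3% against 16.3%. The ETS core was present in 39.3% against 28.3%, and the octamer in 7.14% against 1.74%, which was Blnk and Vpreb3. A match of letters describes the sequence only.

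With DEX, B lineage genes were called lower in both tibiae and none was called higher. In unloaded tibiae 15 of the 31 genes fell, where 3.99% of all 19738 genes tested fell and 2.86% rose. In loaded tibiae 22 of 31 fell, against 8.35% and 12.9% of 19780 genes. The median log2FC of the 31 genes was -1.19 in unloaded and -1.49 in loaded tibiae, and that of all genes tested was 0.033 and 0.0040. For 15 genes in unloaded tibiae every DEX library of the fit was below every vehicle library, as was true of 6.4% of all genes, and for 16 genes in loaded tibiae, as was true of 8.85%. Both comparisons were edgeR's quasi-likelihood test with Benjamini-Hochberg adjustment over all genes tested.

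The count in unloaded tibiae depended on single libraries, since 3 genes were called without DEX_Ctrl replicate 3, 8 without Vehicle_Ctrl replicate 4 and 5 without Vehicle_Ctrl replicate 5. In loaded tibiae the count was 19 without DEX_Load replicate 4 and 4 with background reads as a covariate, a fit in which 29 genes of the whole table were called. The median log2FC of the 31 genes in the covariate fit was -1.56. With the background per kb of exon taken off each library's level, a choice made after seeing the data, the median log2 ratio of group means moved from -1.19 to -1.28 in unloaded tibiae and from -1.53 to -1.95 in loaded tibiae. Scaling by library totals in place of TMM moved the median of all genes to 0.32 and 0.28. The split of all genes went from 787 lower and 564 higher to 341 lower and 2982 higher in unloaded tibiae, and from 1652 lower and 2554 higher to 718 lower and 4124 higher in loaded tibiae. Under that scaling 8 of the 31 genes fell in unloaded tibiae and 3 rose (Btk, Cd37 and Jchain), and 18 fell in loaded tibiae.

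**Figure D1:**
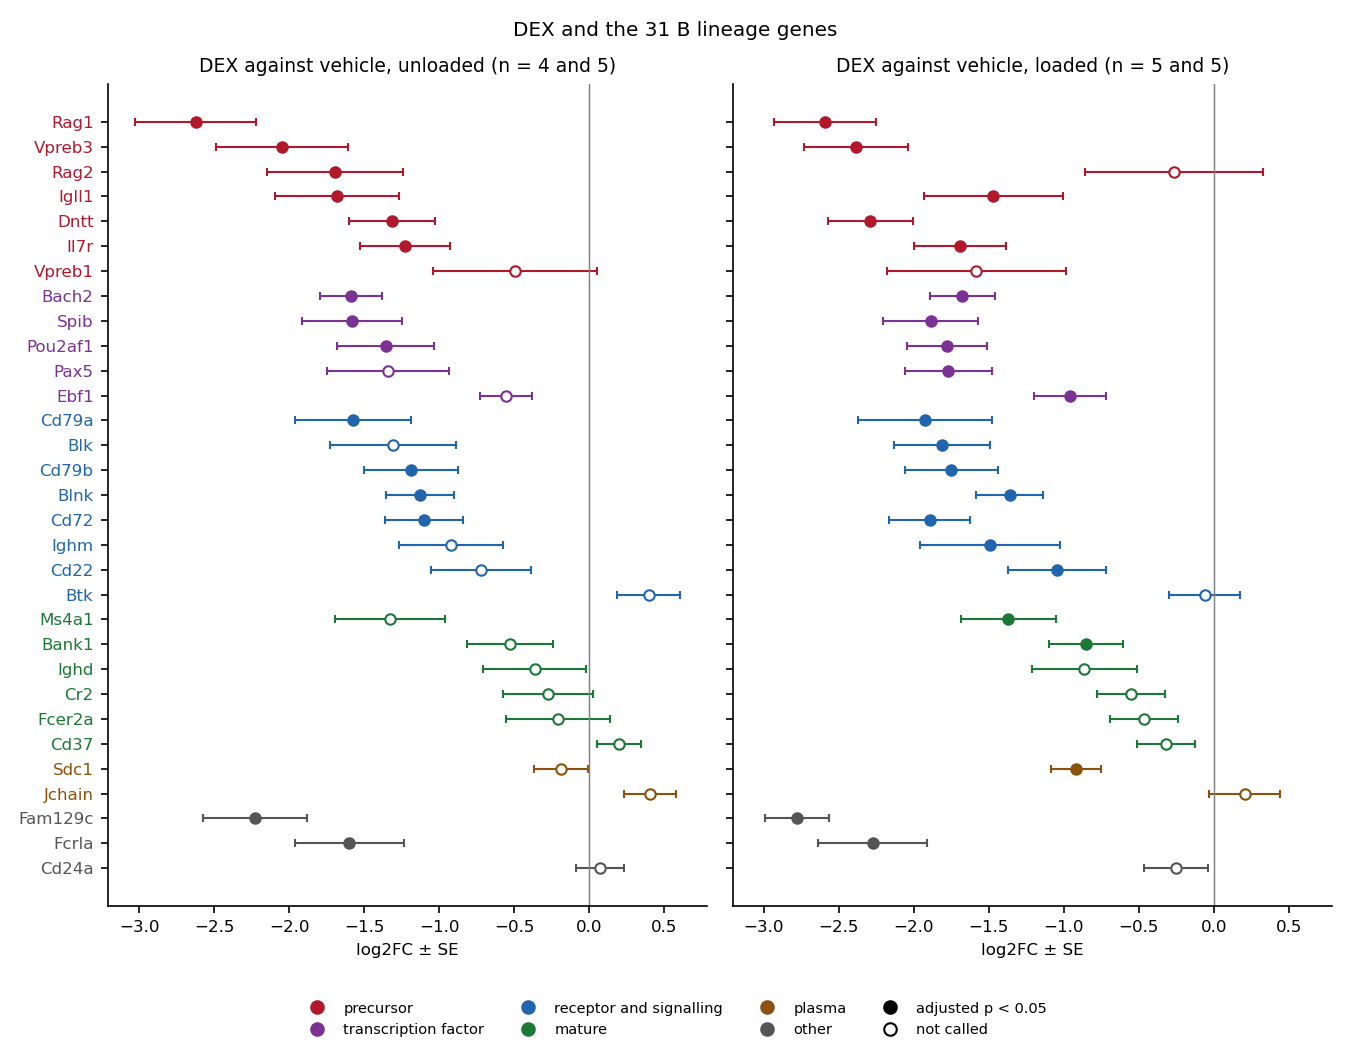
The log2FC of DEX against vehicle with its SE (x axis) for each of the 31 genes (y axis), in unloaded tibiae at left and loaded tibiae at right, coloured by stage and filled where the adjusted p is below 0.05. Rag1 at -2.62 lies farthest left in unloaded tibiae and Fam129c at -2.78 in loaded tibiae, while Jchain lies farthest right at 0.41 and 0.21.

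The 14 genes that fell in both comparisons were Bach2, Blnk, Cd72, Cd79a, Cd79b, Dntt, Fam129c, Fcrla, Igll1, Il7r, Pou2af1, Rag1, Spib and Vpreb3. Rag2 was called in unloaded tibiae only, and 8 genes in loaded tibiae only (Bank1, Blk, Cd22, Ebf1, Ighm, Ms4a1, Pax5 and Sdc1). Both comparisons used tibiae of the same mice, so they are not independent. A call in one tibia and not in the other does not show a difference between them, and no gene of the 31 was called in the test of that difference given below. The remaining 8 genes were called in neither (Btk, Cd24a, Cd37, Cr2, Fcer2a, Ighd, Jchain and Vpreb1). Rag1, Bach2 and Fam129c were called in each of the 21 fits made of either DEX comparison, including all fits that left out a library.

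The other calls in unloaded tibiae were each lost without DEX_Ctrl replicate 3. Dntt and Spib were kept without any other library, and Blnk and Vpreb3 were lost also without Vehicle_Ctrl replicate 5. Fcrla and Pou2af1 were lost also without Vehicle_Ctrl replicate 4 or 5, and Pou2af1 without Vehicle_Ctrl replicate 1 or 2. Cd79a was lost also without Vehicle_Ctrl replicate 1, 2 or 5, Cd72 without DEX_Ctrl replicate 1 or 5 or Vehicle_Ctrl replicate 4 or 5, and Il7r without DEX_Ctrl replicate 1 or Vehicle_Ctrl replicate 2, 4 or 5. Cd79b and Rag2 were lost also without DEX_Ctrl replicate 5 or any numbered Vehicle_Ctrl library, Rag2 also without DEX_Ctrl replicate 2, and Igll1 without DEX_Ctrl replicate 1 or any numbered Vehicle_Ctrl library. Without DEX_Ctrl replicate 2, Ebf1, Ms4a1 and Pax5 were called lower, as was Ighm without Vehicle_Ctrl replicate 2, and Btk was called higher without DEX_Ctrl replicate 1.

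In loaded tibiae 4 calls were lost on leaving out a library. Bank1 was lost without DEX_Load replicate 3 or 4 or Vehicle_Load replicate 2, Cd22 without DEX_Load replicate 3, 4 or 5, Vehicle_Load replicate 2 or the unnumbered library, and Igll1 without DEX_Load replicate 1, 3 or 5, Vehicle_Load replicate 2 or the unnumbered library. Ighm was lost without DEX_Load replicate 1, 3 or 4, Vehicle_Load replicate 4 or the unnumbered library. Without DEX_Load replicate 2, the highest of its group for most genes, Cr2, Fcer2a and Ighd were called lower as well.

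Of the 7 precursor genes, 6 fell in unloaded tibiae and 5 in loaded tibiae, with a median log2FC of -1.68 and -1.69. Below, values of the vehicle groups are in the order of replicates 1, 2, 4, 5 and the unnumbered library, and those of the DEX groups in the order 1 to 5. All levels are CPM after TMM normalization.

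Rag1, the catalytic subunit of the recombinase (GRCm38, chromosome 2, bases 101638282 to 101649501, minus strand), was at 29.4, 36.9, 48.7, 49.1 and 45.7 CPM in unloaded vehicle tibiae and at 22.9, 58.3, 59.2, 52.5 and 57.0 CPM in loaded vehicle tibiae. In unloaded DEX tibiae it was at 8.08, 12.5, 5.19, 3.58 and 1.59 CPM, and in loaded DEX tibiae at 8.32, 9.504, 6.09, 13.5 and 3.14 CPM. Every DEX library was below every vehicle library, and the low vehicle value was Vehicle_Load replicate 1. The fall was 6.16-fold in unloaded tibiae (log2FC -2.62 ± 0.40 SE, adjusted p = 0.0078) and 6.03-fold in loaded tibiae (log2FC -2.59 ± 0.34 SE, adjusted p = 0.00077).

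Rag2, its partner subunit, had lower levels, at 2.52 to 4.98 CPM in unloaded vehicle tibiae and 0.468 to 2.41 CPM in unloaded DEX tibiae. In loaded DEX tibiae it was at 2.68, 1.67, 0.748, 7.72 and 1.30 CPM. The value of DEX_Load replicate 4 stood above all vehicle libraries, and the background measure alone would give 3.76 CPM to a gene of this length in that library. The log2FC was -1.70 ± 0.45 SE in unloaded tibiae (adjusted p = 0.045) and -0.27 ± 0.59 SE in loaded tibiae (adjusted p = 0.77), where it was -1.09 without DEX_Load replicate 4. With background taken off, the log2 ratio of group means was -3.42 in place of -1.68 in unloaded tibiae, with 0.316 CPM left in the DEX group. In loaded tibiae it was -1.43 in place of -0.30, and with scaling by library totals the log2FC there was 0.11.

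Dntt, which encodes the terminal transferase that adds bases at the joins, was at 13.0, 10.8, 13.0, 11.5 and 17.6 CPM in unloaded vehicle tibiae and at 11.2, 19.8, 17.5, 15.5 and 22.6 CPM in loaded vehicle tibiae. In DEX-treated mice it was at 4.22, 9.24, 2.96, 2.85 and 4.495 CPM in unloaded tibiae and 3.89, 5.98, 2.24, 2.05 and 2.82 CPM in loaded tibiae. The groups did not overlap in either tibia, although DEX_Ctrl replicate 2 came close to the lowest vehicle library. Dntt fell 2.48-fold in unloaded tibiae (log2FC -1.31 ± 0.29 SE, adjusted p = 0.022) and 4.89-fold in loaded tibiae (log2FC -2.29 ± 0.28 SE, adjusted p = 0.00058).

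Igll1 and Vpreb1 encode the surrogate light chain, and Vpreb3 a related protein of the same cells. Igll1 was at 8.35, 5.20, 4.61, 5.67 and 6.38 CPM in unloaded and 2.10, 9.57, 6.76, 8.28 and 8.97 CPM in loaded vehicle tibiae. Under DEX, Igll1 was at 2.05, 3.15, 1.98, 1.05 and 0.375 CPM in unloaded and 2.55, 3.14, 1.60, 4.57 and 0.758 CPM in loaded tibiae. The unloaded groups were apart, and in loaded tibiae only Vehicle_Load replicate 1 reached into the DEX range. Igll1 had a log2FC of -1.68 ± 0.41 SE (adjusted p = 0.034) in unloaded and -1.47 ± 0.46 SE (adjusted p = 0.039) in loaded tibiae.

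Vpreb1 was the least abundant of the precursor genes in counts, with 1 to 35 counts per library. Its levels were 2.12, 1.59, 0.838, 2.06 and 3.85 CPM in unloaded vehicle, 0.729, 2.64, 2.50, 3.23 and 3.02 CPM in loaded vehicle, 1.93, 2.82, 0.618, 0.527 and 0.562 CPM in unloaded DEX and 0.134, 0.882, 1.39, 1.26 and 0.217 CPM in loaded DEX tibiae. DEX and vehicle values overlapped in both tibiae. The log2FC was -0.50 ± 0.55 SE (adjusted p = 0.60) in unloaded and -1.58 ± 0.60 SE (adjusted p = 0.074) in loaded tibiae. Vpreb1 was at or under the level that background alone would give in DEX_Load replicates 1, 4 and 5. With background taken off, its log2 ratio of group means in loaded tibiae was -3.54 in place of -1.64, with 0.199 CPM left in the DEX group. Vpreb1 was called lower in 3 of 20 fits of the loaded tibiae (DESeq2, no filter on low counts, and all groups in one model) and in none of the unloaded tibiae, where its log2FC was -1.03 without DEX_Ctrl replicate 2, its highest DEX library, and -0.15 without the unnumbered vehicle library, its highest vehicle library.

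Vpreb3 ranged from 4.38 to 10.9 CPM over the vehicle libraries and from 0.494 to 3.38 CPM over the DEX libraries. It fell 4.13-fold in unloaded and 5.23-fold in loaded tibiae (adjusted p = 0.021 and 0.0016). Il7r, the receptor for the cytokine that precursors need, fell 2.34-fold and 3.23-fold (adjusted p = 0.032 and 0.0047). One loaded vehicle library, replicate 1 at 8.75 CPM, lay within the Il7r range of the loaded DEX tibiae, which was 5.02 to 9.31 CPM.

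**Figure D2:**
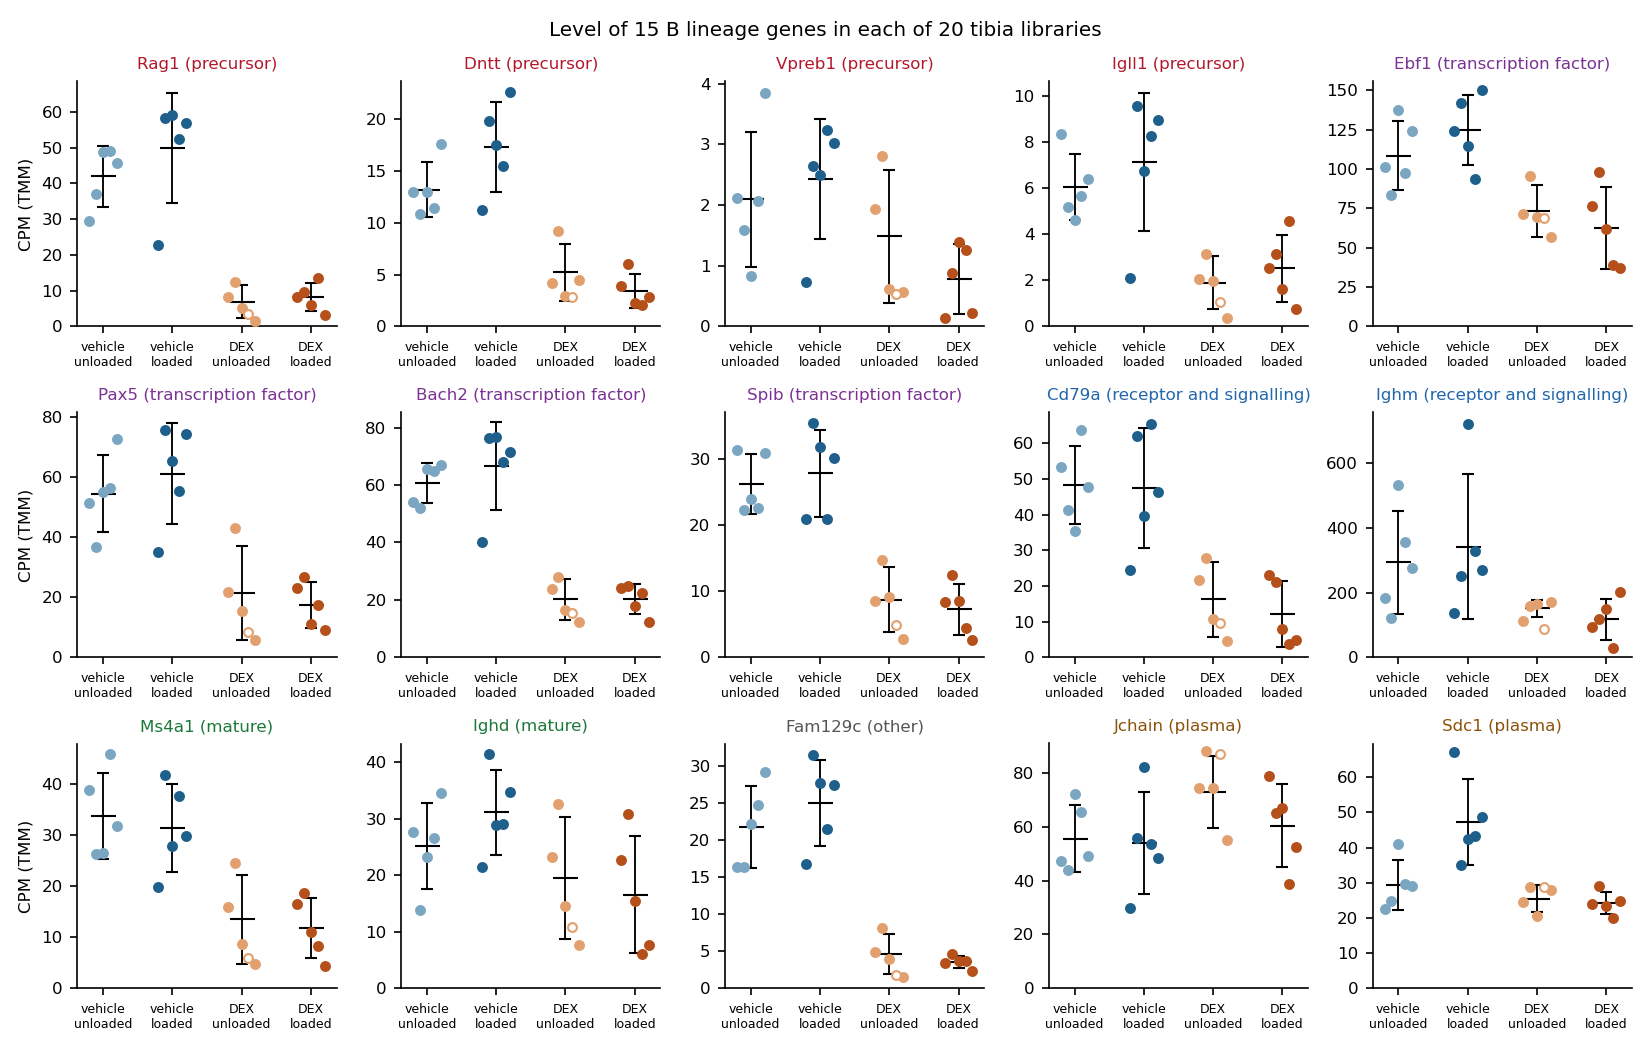
Level of 15 genes in CPM after TMM normalization (y axis, from 0) in each library of the 4 groups (x axis), with the mean and SD over the libraries fitted (5, and 4 for DEX unloaded) as bars and the library left out of the fits as an open circle. Vehicle and DEX libraries do not overlap for Rag1, Bach2 and Fam129c, and overlap for Ighd and Jchain.

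All 5 transcription factor genes had a negative log2FC in both tibiae. In unloaded tibiae 3 of them fell (Bach2, Pou2af1 and Spib), and in loaded tibiae all 5 fell, with a median log2FC of -1.36 and -1.77.

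Ebf1, which opens the B lineage program and is also active in marrow stroma and fat precursors, was at 101, 83.3, 137, 97.2 and 124 CPM in unloaded vehicle tibiae and 124, 142, 114, 93.9 and 150 CPM in loaded vehicle tibiae. The DEX values were 71.0, 95.6, 69.3, 68.6 and 56.5 CPM in unloaded and 76.5, 98.1, 61.8, 38.7 and 37.2 CPM in loaded tibiae. DEX replicate 2 overlapped the vehicle libraries in both tibiae. The log2FC was the smallest of the 5 factors in either tibia, at -0.56 ± 0.17 SE (adjusted p = 0.074) and -0.96 ± 0.24 SE (adjusted p = 0.017).

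Pax5, which holds cells to the B lineage, was at 51.4, 36.6, 55.1, 56.3 and 72.5 CPM in unloaded and 35.0, 75.7, 65.3, 55.5 and 74.3 CPM in loaded vehicle tibiae. With DEX it was at 21.7, 42.9, 15.3, 8.54 and 5.81 CPM in unloaded and 22.9, 26.8, 11.01, 17.3 and 8.99 CPM in loaded tibiae. In unloaded tibiae DEX_Ctrl replicate 2 lay among the vehicle values, and in loaded tibiae the groups were apart. Pax5 had a log2FC of -1.34 ± 0.41 SE (adjusted p = 0.069) in unloaded tibiae and fell 3.41-fold in loaded tibiae (adjusted p = 0.0028).

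Bach2, a repressor that delays plasma cell differentiation, was at 54.2, 51.9, 65.5, 65.0 and 66.9 CPM in unloaded and 40.2, 76.5, 76.7, 68.0 and 71.4 CPM in loaded vehicle tibiae. It was at 23.9, 28.05, 16.4, 15.5 and 12.2 CPM in unloaded DEX tibiae and 24.02, 24.7, 17.8, 22.5 and 12.1 CPM in loaded DEX tibiae. No DEX library reached the lowest vehicle library. The fall was 3.00-fold in unloaded (log2FC -1.59 ± 0.21 SE, adjusted p = 0.0040) and 3.19-fold in loaded tibiae (log2FC -1.68 ± 0.21 SE, adjusted p = 0.00071).

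Spib, an ETS factor of B cells and plasmacytoid dendritic cells, was at 31.3, 22.3, 23.9, 22.5 and 30.8 CPM in unloaded and 20.9, 35.4, 31.8, 20.95 and 30.1 CPM in loaded vehicle tibiae. Its DEX values were 8.44, 14.6, 9.14, 4.96 and 2.72 CPM in unloaded and 8.32, 12.4, 8.44, 4.41 and 2.60 CPM in loaded tibiae. The groups were again apart, and DEX replicate 5 was the lowest of its group in both tibiae. Spib fell 2.99-fold (adjusted p = 0.020) and 3.69-fold (adjusted p = 0.0031). Pou2af1, the coactivator of the octamer factors, fell 2.56-fold and 3.43-fold (adjusted p = 0.029 and 0.0019).

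Among 8 genes of the B cell receptor and its signalling, 4 fell in unloaded tibiae (Blnk, Cd72, Cd79a and Cd79b) and 7 in loaded tibiae, the exception being Btk. The median log2FC was -1.11 and -1.62.

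Cd79a and Cd79b encode the 2 signalling chains of the receptor. Cd79a was at 53.3, 41.2, 35.3, 63.7 and 47.6 CPM in unloaded and 24.4, 61.9, 39.5, 65.4 and 46.2 CPM in loaded vehicle tibiae. In DEX-treated mice Cd79a was at 21.6, 27.9, 10.7, 9.70 and 4.68 CPM in unloaded and 23.1, 21.2, 8.01, 3.62 and 4.88 CPM in loaded tibiae. The groups did not overlap, though DEX_Load replicate 1 was close to Vehicle_Load replicate 1. Cd79a fell 2.98-fold (log2FC -1.57 ± 0.38 SE, adjusted p = 0.032) and 3.80-fold (log2FC -1.92 ± 0.45 SE, adjusted p = 0.013), and Cd79b 2.28-fold and 3.36-fold (adjusted p = 0.041 and 0.0042).

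Ighm, the constant region of IgM, had the widest spread of the 31 genes within vehicle groups, relative to its mean. It was at 185, 122, 532, 356 and 276 CPM in unloaded and 138, 250.6, 723, 330 and 270 CPM in loaded vehicle tibiae, against 114, 158, 165, 86.9 and 172 CPM in unloaded and 93.0, 117, 150, 30.2 and 201 CPM in loaded DEX tibiae. Replicate 4 was the highest vehicle library in both tibiae, and vehicle and DEX values overlapped in both. Ighm had a log2FC of -0.92 ± 0.35 SE (adjusted p = 0.13) in unloaded and -1.49 ± 0.47 SE (adjusted p = 0.039) in loaded tibiae.

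The adaptor Blnk fell 2.19-fold and 2.57-fold (adjusted p = 0.017 and 0.0029). Cd72, an inhibitory coreceptor, fell 2.14-fold and 3.72-fold (adjusted p = 0.030 and 0.0015). The kinase gene Blk and the inhibitory lectin gene Cd22 had a log2FC of -1.31 ± 0.42 SE and -0.72 ± 0.33 SE in unloaded tibiae, where neither was called, and fell 3.52-fold and 2.06-fold in loaded tibiae (adjusted p = 0.0041 and 0.039). Btk, a kinase also used by myeloid cells, had a log2FC of 0.40 ± 0.21 SE in unloaded and -0.061 ± 0.24 SE in loaded tibiae and was called in neither (adjusted p = 0.27 and 0.87), with a positive sign in loaded tibiae under library-total scaling.

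**Figure D3:**
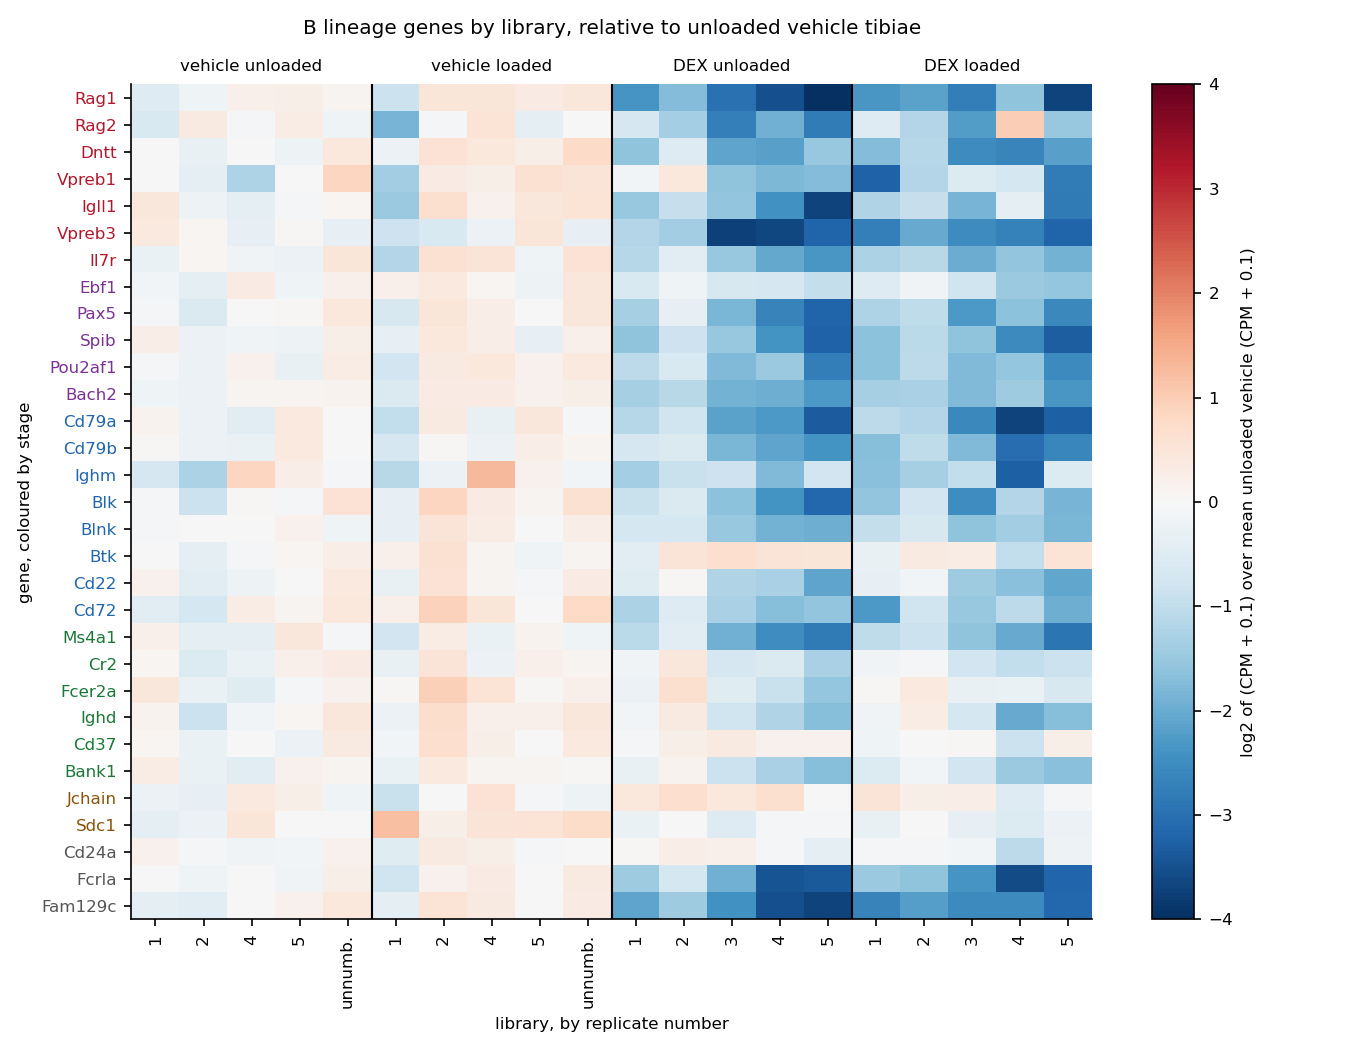
Log2 of each gene's CPM over its mean in unloaded vehicle tibiae, both with 0.1 added, for the 31 genes (rows, coloured by stage) in the 20 libraries (columns, by group and replicate number). DEX replicate 2 has the highest values of its group for 26 of the 31 genes in unloaded and 21 in loaded tibiae.

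None of 6 genes of mature B cells was called in unloaded tibiae and 2 fell in loaded tibiae (Bank1 and Ms4a1), with a median log2FC of -0.32 and -0.70.

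Ms4a1, which encodes CD20, was at 38.7, 26.2, 26.5, 45.8 and 31.7 CPM in unloaded and 19.8, 41.7, 27.9, 37.6 and 29.8 CPM in loaded vehicle tibiae. It was at 15.9, 24.6, 8.77, 5.90 and 4.68 CPM in unloaded DEX and 16.5, 18.7, 11.01, 8.35 and 4.33 CPM in loaded DEX tibiae. The groups were apart in both tibiae, with a narrow gap each time between the lowest vehicle library and DEX replicate 2. In unloaded tibiae the log2FC was -1.33 ± 0.37 SE, just outside the threshold at an adjusted p of 0.0503, and in loaded tibiae Ms4a1 fell 2.58-fold (adjusted p = 0.013).

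Ighd, the constant region of IgD that naive mature B cells carry beside IgM, was at 27.7, 13.8, 23.2, 26.7 and 34.6 CPM in unloaded and 21.4, 41.5, 28.9, 29.1 and 34.8 CPM in loaded vehicle tibiae. With DEX, Ighd was at 23.2, 32.7, 14.6, 10.9 and 7.68 CPM in unloaded and 22.7, 30.8, 15.5, 6.14 and 7.69 CPM in loaded tibiae. DEX replicates 1 and 2 were within the vehicle range in both tibiae, as was DEX_Ctrl replicate 3, and the others lay lower. The log2FC was -0.36 ± 0.34 SE (adjusted p = 0.54) and -0.86 ± 0.35 SE (adjusted p = 0.092).

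Cr2, a complement receptor, had a log2FC of -0.27 ± 0.30 SE in unloaded and -0.55 ± 0.23 SE in loaded tibiae (adjusted p = 0.60 and 0.095). With background taken off, its log2 ratio of group means in loaded tibiae was -1.53 in place of -0.60. Fcer2a, the low-affinity IgE receptor, had -0.21 ± 0.35 SE and -0.47 ± 0.23 SE (adjusted p = 0.74 and 0.16). The sign of both in unloaded tibiae turned positive with library-total scaling, at 0.03 and 0.09. Bank1, a scaffold of receptor signalling, had a log2FC of -0.53 ± 0.29 SE in unloaded tibiae (adjusted p = 0.28) and fell 1.80-fold in loaded tibiae (adjusted p = 0.029). Cd37, a tetraspanin found on many leukocytes, had a log2FC of 0.20 ± 0.15 SE and -0.32 ± 0.19 SE and was called in neither.

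Precursor genes were set against mature genes within each library by dividing the summed CPM of Rag1, Dntt, Vpreb1 and Igll1 by that of Ms4a1, Cr2, Fcer2a and Ighd. The ratio was 0.587, 0.996, 1.03, 0.729 and 0.819 in unloaded vehicle tibiae and 0.625, 0.778, 1.09, 0.9004 and 1.06 in loaded vehicle tibiae. It was 0.288, 0.323, 0.296, 0.279 and 0.357 in unloaded DEX tibiae and 0.256, 0.272, 0.283, 0.786 and 0.294 in loaded DEX tibiae. All DEX libraries were below all vehicle libraries except DEX_Load replicate 4, which lay within the vehicle range. In that library 5 of the 31 genes (Dntt, Vpreb1, Cr2, Fcrla and Fam129c) were at or under the level that background alone would give, and no other library had more than 1. Rag1 was at 13.5 CPM in DEX_Load replicate 4, where background alone would give it 7.26 CPM. Rag1 made up most of the precursor sum, with a mean of 42.0 of 63.3 CPM in unloaded vehicle tibiae. The 4 genes of each sum were part of the choice of genes, so the ratio carries no test.

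In unloaded DEX tibiae, those 4 precursor genes summed to 7.02 to 27.7 CPM and the 4 mature genes to 19.7 to 85.8 CPM. In unloaded vehicle tibiae the sums were 52.9 to 73.5 CPM and 54.7 to 93.6 CPM. Mature sums of the 2 groups thus overlapped, and precursor sums did not. Over the libraries fitted, the mean mature sum was still lower with DEX, at 49.6 against 78.7 CPM in unloaded tibiae. In loaded tibiae it was 44.2 against 85.8 CPM, with ranges of 23.6 to 71.7 CPM and 59.1 to 116 CPM. DEX_Ctrl replicate 2 was the highest library of its group for 26 of the 31 genes and replicate 5 the lowest for 22. DEX_Load replicate 2 was the highest of its group for 21 genes, and the lowest was replicate 5 for 14 and replicate 4 for 12.

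**Figure D4:**
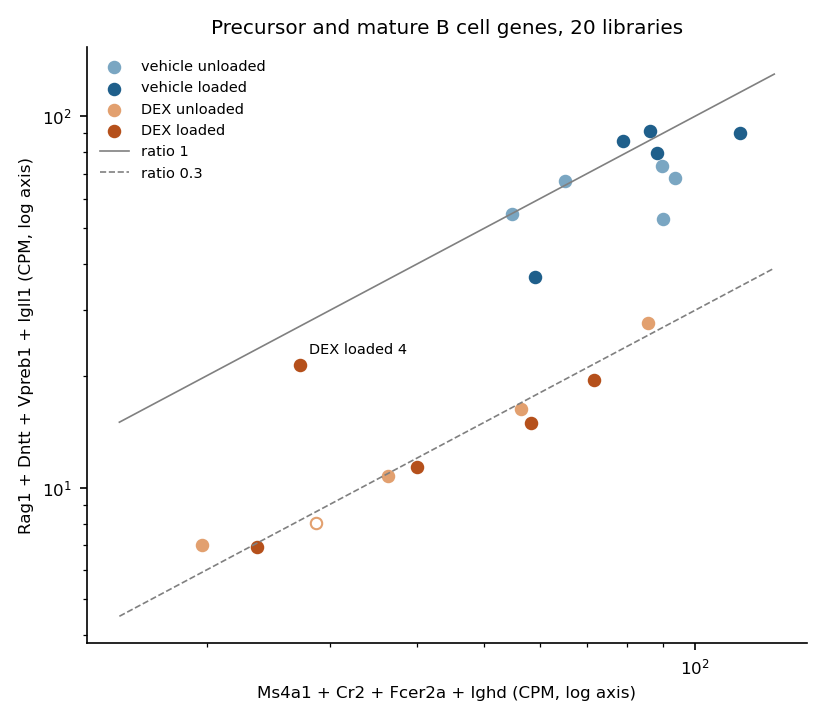
Summed CPM of 4 precursor genes (y axis, log scale) against that of 4 mature genes (x axis, log scale) in the 20 libraries, with lines for a ratio of 1 and of 0.3 and an open circle for the library left out of the fits. Vehicle libraries lie at ratios from 0.587 to 1.09 and DEX libraries near the lower line, except DEX_Load replicate 4 at 0.786.

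Of the 2 plasma cell genes neither was called in unloaded tibiae, and Sdc1 fell in loaded tibiae. Jchain, the chain that joins IgM and IgA into polymers, was at 47.3, 43.8, 72.3, 65.3 and 49.0 CPM in unloaded and 29.7, 55.7, 82.3, 53.5 and 48.4 CPM in loaded vehicle tibiae. Under DEX it was at 74.2, 88.0, 74.4, 87.1 and 55.2 CPM in unloaded and 78.9, 65.0, 66.8, 38.7 and 52.5 CPM in loaded tibiae. In unloaded tibiae every DEX library but replicate 5 was above every vehicle library, and in loaded tibiae the groups overlapped more widely. Jchain had a positive log2FC in both, 0.41 ± 0.17 SE and 0.21 ± 0.24 SE, and was called in neither (adjusted p = 0.17 and 0.55).

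Sdc1, which encodes the plasma cell surface protein CD138 and is also made by epithelial and bone-forming cells, was at 22.5, 24.8, 41.1, 29.6 and 29.1 CPM in unloaded and 67.2, 35.0, 42.3, 43.3 and 48.6 CPM in loaded vehicle tibiae. DEX values were 24.5, 28.8, 20.5, 28.7 and 27.9 CPM in unloaded and 23.9, 29.0, 23.5, 19.9995 and 24.8 CPM in loaded tibiae. The unloaded groups overlapped and the loaded groups did not, and the loaded vehicle tibiae were the highest group. Sdc1 had a log2FC of -0.19 ± 0.18 SE in unloaded tibiae (adjusted p = 0.54, with a positive sign under library-total scaling) and fell 1.89-fold in loaded tibiae (adjusted p = 0.0047).

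The last 3 genes were not placed in a stage. Fam129c, a gene of B cells with little known function, was at 16.4, 16.3, 22.2, 24.7 and 29.2 CPM in unloaded and 16.8, 31.6, 27.8, 21.5 and 27.5 CPM in loaded vehicle tibiae. With DEX, Fam129c was at 4.95, 8.11, 3.95, 1.79 and 1.59 CPM in unloaded and 3.35, 4.60, 3.63, 3.62 and 2.38 CPM in loaded tibiae. No DEX value came near the vehicle range. Fam129c fell 4.69-fold in unloaded tibiae (log2FC -2.23 ± 0.35 SE, adjusted p = 0.0082). In loaded tibiae it fell 6.86-fold (log2FC -2.78 ± 0.21 SE, adjusted p = 9.8e-05), the largest fall of the 31 genes there. With background taken off, its log2 ratio of group means was -2.51 in place of -2.23 in unloaded and -3.77 in place of -2.83 in loaded tibiae. Fcrla, an Fc receptor-like protein inside B cells, fell 3.03-fold and 4.83-fold (adjusted p = 0.026 and 0.0025). Cd24a, a surface protein shared with erythroid and other precursors and the most abundant of the 31 genes by CPM, had a log2FC of 0.069 ± 0.16 SE and -0.25 ± 0.21 SE and was called in neither.

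Per length of exon, Cd24a was also the most abundant gene in unloaded vehicle tibiae, at 471 on a TPM-like scale (counts per kb of exon, scaled to the same sum in each library), followed by Ighm at 377, Cd79a at 80.1 and Jchain at 53.5. Rag1 stood at 15.5 and Rag2 at 2.79 on that scale, the lowest of the 31 genes. In unloaded DEX tibiae Cd24a was at 553, Ighm at 221, Jchain at 79.9 and Cd79a at 31.1, so Jchain stood above Cd79a.

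Loading was compared within each treatment, since the study's question was the response of bone to load. Loaded and unloaded tibiae came from the same mice, but no source used here ties a replicate number to a mouse, so the libraries were fitted without pairs, and with the replicate number as a block the count of the 31 genes called was also 0 in each of the 3 fits. None of the 31 genes was called for loading in vehicle-treated mice, in DEX-treated mice or in the interaction of DEX and loading by edgeR's quasi-likelihood test, which called 0% of all genes tested in each of the 3 (17982, 22541 and 23653 genes). The same test called 50 genes for loading in vehicle-treated mice with no filter on low counts, and 39 for loading in DEX-treated mice and 54 for the interaction without DEX_Ctrl replicate 5, none of them among the 31. At an unadjusted p under 0.05 were 2 of the 31 genes in vehicle-treated mice (Cd72 and Sdc1), 0 in DEX-treated mice and 3 in the interaction (Dntt, Cd72 and Sdc1), beside 1773, 958 and 2859 of all genes. DESeq2's Wald test also called none of the 31 in any of the 3, while it called 126 genes for loading in vehicle-treated mice, 1 in DEX-treated mice and 44 for the interaction. The median log2FC of loading over the 31 genes was 0.15 in vehicle-treated and -0.29 in DEX-treated mice, and 25 and 4 of the genes were above 0. The sign in DEX-treated mice rested on 1 library, since the median was 0.022 without DEX_Ctrl replicate 2, and it ran from -0.47 without DEX_Ctrl replicate 5 to that value on leaving out 1 library. In vehicle-treated mice it ran from 0.062 without Vehicle_Load replicate 2 to 0.26 without Vehicle_Load replicate 1.

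Sdc1 had the largest loading log2FC in vehicle-treated mice at 0.66 ± 0.19 SE (adjusted p = 0.33) and -0.091 ± 0.16 SE in DEX-treated mice. Its interaction, the loading log2FC in DEX-treated mice less that in vehicle-treated mice, was -0.76 ± 0.27 SE (unadjusted p = 0.0091, adjusted p = 0.37). Dntt had a loading log2FC of 0.37 ± 0.18 SE in vehicle-treated and -0.63 ± 0.40 SE in DEX-treated mice, with an interaction of -1.003 ± 0.42 SE (adjusted p = 0.40). Cd72, the remaining gene at an unadjusted p under 0.05, had an interaction of -0.83 ± 0.40 SE (adjusted p = 0.41). Rag2 had the largest positive interaction, 1.36 ± 0.79 SE (adjusted p = 0.44), and DEX_Load replicate 4 was its highest library.

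**Figure D5:**
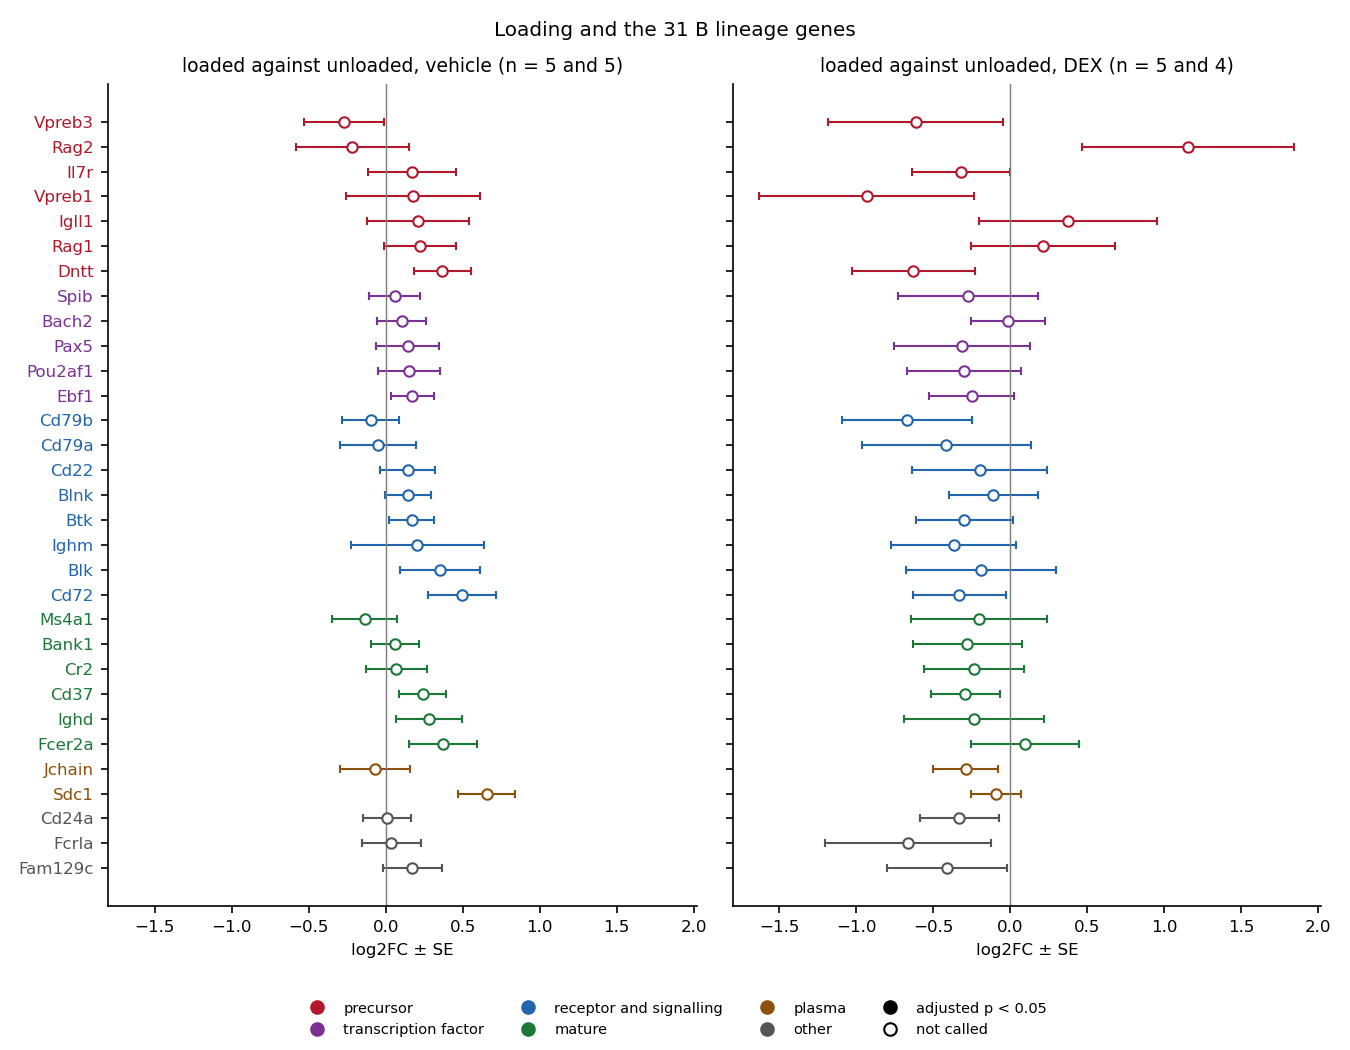
The log2FC of loaded against unloaded tibiae with its SE (x axis) for each of the 31 genes (y axis), in vehicle-treated mice at left and DEX-treated mice at right, coloured by stage. All points are open since no gene was called, and the median in DEX-treated mice, -0.29, was 0.022 without DEX_Ctrl replicate 2.

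Other genes of the same cells, from lists chosen with earlier results known, were counted in the same fits. Of 10 further B cell surface genes none was called in unloaded tibiae and 6 fell in loaded tibiae. Tnfrsf13c, a receptor for a survival cytokine of mature B cells, was among those that fell, at -1.27 ± 0.25 SE, and Cnr2, a cannabinoid receptor, was at 0.20 ± 0.15 SE and not called. Of 7 further precursor genes tested, Sox4 and Foxo1 fell in unloaded tibiae, at -0.97 ± 0.21 SE and -0.50 ± 0.13 SE. In loaded tibiae Lef1, Sox4, Cd93 and Tcf3 fell, Sox4 by most at -1.38 ± 0.15 SE, and Arpp21 was at 0.23 ± 0.20 SE and not called.

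Of 7 further plasma cell genes, Irf4, a transcription factor shared with activated B cells, and Fkbp11, a chaperone of secretory cells, fell in both tibiae. Irf4 had a log2FC of -1.54 ± 0.25 SE and -1.47 ± 0.22 SE, and Fkbp11 of -1.48 ± 0.18 SE and -1.76 ± 0.25 SE. Txndc5 also fell in loaded tibiae, at -1.14 ± 0.18 SE, and the highest value was that of Derl3 at 0.44 ± 0.44 SE, not called. Xbp1 and Prdm1 are factors of plasma cells that other cells also use. They were at -0.025 ± 0.14 SE and 0.061 ± 0.17 SE in unloaded tibiae. In loaded tibiae they were at -0.087 ± 0.12 SE and -0.16 ± 0.24 SE, and they were called in neither. The median log2FC of these 7 genes was -0.54 in unloaded and -0.93 in loaded tibiae, where 6 of the 7 were below 0. Fkbp11 and Txndc5 serve secretion in many cells, and which cells the changes came from was not tested.

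Immunoglobulin constant genes went both ways. Of 9 tested, Igha and Ighg1 rose in both tibiae and Iglc2, which has a near copy in Iglc3 so that its counts are uncertain, fell in both. Igha, the constant region of IgA, was at 69.3 to 151 CPM in unloaded vehicle and 146 to 329 CPM in unloaded DEX tibiae. Its log2FC was 1.18 ± 0.26 SE (adjusted p = 0.023) and 0.99 ± 0.26 SE (adjusted p = 0.019). Ighg1, of IgG1, had 0.85 ± 0.23 SE and 0.62 ± 0.20 SE, and Iglc2 -0.96 ± 0.25 SE and -1.29 ± 0.33 SE. The kappa constant gene Igkc was at 0.41 ± 0.26 SE and -0.084 ± 0.30 SE and not called, and Ighg3, with the highest value in unloaded tibiae at 2.35 ± 0.94 SE, was not called either (adjusted p = 0.15).

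Among 6 cytokines that act on B cells, none was called in unloaded tibiae, and Tnfsf13 and Tnfsf13b, which sustain plasma cells and mature B cells, rose in loaded tibiae. Tnfsf13 had a log2FC of 1.199 ± 0.20 SE and Tnfsf13b of 0.59 ± 0.15 SE. Il7, the cytokine of the precursors, was at -0.29 ± 0.28 SE and -0.11 ± 0.36 SE. The lowest value in loaded tibiae was that of Cxcl12, the chemokine of the marrow niche, at -0.46 ± 0.22 SE, not called.

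Markers of other cells in the bone also differed between vehicle and DEX, and their part in the B lineage results was not tested. Neutrophil markers rose, 8 of 10 in unloaded and 9 of 10 in loaded tibiae. Their summed level was 5051 to 7273 CPM in unloaded vehicle, 4342 to 6403 CPM in loaded vehicle, 9151 to 16564 CPM in unloaded DEX and 7325 to 17504 CPM in loaded DEX tibiae. In loaded tibiae they ran from Ltf at 0.79 ± 0.38 SE, not called, to Mmp8 at 1.79 ± 0.23 SE. Osteoblast markers fell, 5 of 7 in unloaded and 7 of 7 in loaded tibiae, from Bglap at -3.47 ± 0.55 SE to Sp7 at -0.79 ± 0.17 SE in loaded tibiae. Their summed level was 41011 to 144462 CPM in unloaded vehicle, 63397 to 94883 CPM in loaded vehicle, 6066 to 35059 CPM in unloaded DEX and 4537 to 22939 CPM in loaded DEX tibiae.

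None of the T cell markers was called in either tibia, and their summed level was 25.5 to 41.4 CPM in the vehicle and 22.9 to 43.9 CPM in the DEX group of unloaded tibiae. They ran in loaded tibiae from Trbc1 at -1.01 ± 0.63 SE to Cd3g at 0.87 ± 0.32 SE. Nkg7 at 0.99 ± 0.25 SE was the one natural killer marker called, in loaded tibiae, where the lowest was Klrk1 at 0.028 ± 0.22 SE. Of 5 plasmacytoid dendritic cell markers tested, Ly6c2, which monocytes and plasma cells also carry, rose in both tibiae at 1.21 ± 0.23 SE and 0.79 ± 0.26 SE. Tcf4 fell in loaded tibiae at -0.59 ± 0.19 SE, and Bst2 was the lowest at -0.61 ± 0.22 SE, not called.

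None of 9 erythroid markers was called in either tibia, with a summed level of at least 3770 CPM in every library, and in loaded tibiae they ran from Hbb-bs at -0.53 ± 0.37 SE to Hba-a1 at 0.011 ± 0.40 SE. Of 7 macrophage markers Adgre1 and C1qc fell in loaded tibiae, at -0.63 ± 0.15 SE and -0.60 ± 0.17 SE, and Vcam1 was the highest at -0.38 ± 0.22 SE. None of 4 marrow stroma markers was called, with Adipoq at -0.63 ± 0.33 SE and Kitl at -0.32 ± 0.18 SE as the lowest and highest in loaded tibiae. None of 5 skeletal muscle markers was called, but their summed level ran from 1175 to 27752 CPM over the unloaded tibiae. Myh4 was at -1.95 ± 0.61 SE in unloaded and 0.30 ± 0.47 SE in loaded tibiae, where Ckm was the highest at 0.51 ± 0.45 SE.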

How the data were processed

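Frozen tibial bone tissue of DEX- and vehicle-treated mice, loaded and unloaded, was pulverized and their RNA was made into stranded total RNA libraries. Per the labels and the submitters' processing notes, the authors aligned reads with STAR 2.7.10a and deposited RSEM 1.2.28 expected counts per gene on GRCm38, without normalization, and their annotation release and strand setting are not given in the sources used here. Expected counts share reads among similar genes by estimate, and were rounded here to whole numbers. Identifiers of 54409 of the 54446 genes matched GENCODE M21 without their version. Columns were assigned by name. A vehicle column numbered 6 has no such number in the labels and is called the unnumbered library.

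Counts were tested in R 4.3.3 with edgeR 4.0.16 (filterByExpr, TMM, glmQLFit and glmQLFTest), in a fit of the libraries of each comparison, at a Benjamini-Hochberg adjusted p of 0.05 over all genes tested. SEs were derived from the size of the log2FC and its F statistic. DEX_Ctrl replicate 4 was left out, since the study removed DEX-4 as an outlier. Its tibia, not named in the text as read here, was taken from the number of unloaded samples the study shows. CPM values used TMM factors over 22659 genes. The scripts were tested on simulated data. The paper gives its sample size for these data as mice per group, so libraries of a group were taken as different mice. The p-values measure the spread between these libraries. The members and gene lists were chosen with earlier results of these data known.

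Of the 31 genes, 12 were set to be given in every library as representatives of their stage, with the largest DEX change of each stage in each tibia added. Of every other list the genes with the lowest and highest DEX change in loaded tibiae are named, and all called genes where 5 or fewer were called. Further genes of those lists were named after their values were seen, and 1 gene that this would name is not reported here. Alternatives were DESeq2 1.42.0, other scalings, other filters on low counts, a replicate block, one model for all groups, all 20 libraries, a covariate for background reads and leaving out each library. Fits of the paired libraries without the block, DESeq2 on all 20 libraries, fits without both DEX replicate 4 libraries and background subtraction were chosen after seeing the data. DESeq2 sets some adjusted p to NA, and these were kept as NA.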

Additional observations from a re-analysis of the deposited data

Results flagged for a closer look

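In 7 of 124 checks of a gene within a group, 1 library stood apart from the others by Dixon's criterion, where chance gives about 1 in 20 checks. Vehicle_Load replicate 1 was low for Rag1 at 22.9 CPM against 52.5 to 59.2 CPM in the others of its group. The same library was low for Pou2af1 at 13.9 CPM against 26.5 to 31.4 CPM, and for Bach2 at 40.2 CPM against 68.0 to 76.7 CPM. DEX_Load replicate 4, the shallowest library with the most background reads, was high for Rag2 at 7.72 CPM against 0.748 to 2.68 CPM, and low for Cd24a at 239 CPM against 436 to 474 CPM. DEX_Ctrl replicate 2 was high for Dntt at 9.24 CPM against 2.85 to 4.495 CPM. The 2.85 CPM was that of DEX_Ctrl replicate 4, so the checks of DEX_Ctrl included the library left out of the fits. DEX_Ctrl replicate 1 was low for Btk at 17.7 CPM against 33.2 to 37.7 CPM.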

How the results depend on the processing

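The 31 genes gave 3 to 21 calls over 21 fits in unloaded tibiae and 4 to 26 in loaded tibiae, with a median log2FC between -1.48 and -0.88 and between -1.76 and -1.31. Leaving out 1 library gave 3 to 17 calls in unloaded tibiae (3 without DEX_Ctrl replicate 3, 8 without Vehicle_Ctrl replicate 4, 5 without Vehicle_Ctrl replicate 5) and 18 to 25 in loaded tibiae. None of the 31 was called for loading or the interaction in any fit run (0 each), while over all genes up to 126 were called for loading in vehicle-treated mice (DESeq2), 39 in DEX-treated mice (without DEX_Ctrl replicate 5) and 136 for the interaction (DESeq2 on all 20 libraries). DESeq2 called 20 and 24 of the 31, no filter gave 19 and 26, and all 20 libraries gave 20 in unloaded tibiae. Background reads as a covariate gave 4 in loaded tibiae. Both tibiae of a mouse were used, but no source ties numbers to mice. Same-numbered loaded and unloaded libraries correlated in their deviations at 0.030 to 0.36 in DEX-treated mice, above 0 in all 5, and at -0.30 to 0.25 in vehicle-treated mice, and 2 of 9 correlated best with their own number, so pairing was not established. DEX and vehicle libraries of a number are different mice. The replicate block gave 5 calls in unloaded tibiae, against 4 for the same libraries without the block, and 20 in loaded tibiae, against 15. Over all genes, the count in unloaded tibiae was 1351, and was 2263 with DESeq2, 3510 with DESeq2 on all 20 libraries, 3323 with library totals, 520 with the block and 566 without it, 2922 with all 20 libraries, 2657 with the covariate, 129 without DEX_Ctrl replicate 3, 828 without DEX_Ctrl replicate 2, 830 without Vehicle_Ctrl replicate 4 and 530 without Vehicle_Ctrl replicate 5. In loaded tibiae it was 4206, and was 10700 with DESeq2, 9016 with no filter, 8446 with one model, 2203 with at least 10 counts in every library, 2326 with the block and 1120 without it, 29 with the covariate and 2696 without the unnumbered vehicle library. Of 615 values of single genes in each comparison, 494 and 540 kept direction and side of the threshold. Some log2FC near 0 changed sign. In unloaded tibiae, library totals gave Cr2 0.031, Fcer2a 0.090 and Sdc1 0.092, the block gave Sdc1 0.086 and Cd24a -0.0024, the same libraries without it Sdc1 0.084, the covariate Sdc1 0.016, and DESeq2 on all 20 libraries Cd24a -0.010. Leaving out 1 library there gave Fcer2a from -0.68 to 0.044 (the highest without DEX_Ctrl replicate 5) and Cd24a down to -0.019 (without DEX_Ctrl replicate 2). In loaded tibiae, library totals gave Rag2 0.11 and Btk 0.16, the covariate gave Btk 0.76, Cd37 0.22, Jchain -0.022 and Cd24a 0.0068, and Btk was 0.036 with at least 10 counts and ran from -0.22 to 0.10 on leaving out 1 library (the highest without DEX_Load replicate 4, and above 0 also without DEX_Load replicate 1 or Vehicle_Load replicate 2). The cause of these changes was not tested. Depth limits Vpreb1 and Rag2 most, with at most 35 and 49 counts in any library.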

Other observations

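Immunoglobulin variable segments, whose RNA comes from B cells and plasma cells, had summed levels that overlapped between treatments. The Ighv segments summed to 27.4 to 76.0 CPM in unloaded vehicle, 31.4 to 89.9 CPM in loaded vehicle, 35.7 to 66.2 CPM in unloaded DEX and 35.0 to 56.9 CPM in loaded DEX tibiae. The Igkv segments summed to 29.2 to 65.4 CPM, 23.2 to 85.7 CPM, 41.6 to 64.6 CPM and 36.1 to 49.8 CPM in the same order. Of the end joining genes that work after the recombinase, none of 7 was called in unloaded tibiae and 2 fell in loaded tibiae. Xrcc6 had a log2FC of -0.62 ± 0.12 SE there and Lig4 of -0.55 ± 0.18 SE, and the highest, Nhej1, was at 0.17 and not called.

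None of 6 apoptosis genes and none of 6 cell cycle genes was called in either tibia by edgeR. In loaded tibiae the apoptosis genes ran from Bbc3 at -0.50 to Bcl2 at -0.07 in log2FC, and the cell cycle genes from Mki67 at -0.34 to Ccnb1 at 0.02. Both lists cover cells of every lineage in the bone.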
